A study of Mus musculus with 11 samples.

Results

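The genes described here encode ATP-dependent chromatin remodellers, the enzymes that slide, eject or exchange nucleosomes, together with the subunits that guide them. They were chosen by a rule on gene symbols that uses no measured value, as the *Smarca* to *Smarce*, *Arid*, *Chd*, *Ino80*, *Dpf*, *Baz*, *Mta* and *Ruvbl* families plus *Actl6a*, *Pbrm1*, *Ep400*, *Srcap*, *Atrx*, *Gatad2a*, *Gatad2b*, *Bptf* and *Hells*. The rule held 56 symbols, of which 54 had a deposited value among 14272 genes in all, and 2 (*Dpf3* and *Smarca1*) had none. By complex, 16 of the 54 belonged to SWI/SNF, 6 to ISWI, 8 to NuRD, 6 were other CHD enzymes, 9 belonged to the INO80, SRCAP and p400 complexes, 3 were other SNF2-like enzymes, and 6 were ARID-domain proteins (*Arid3a* to *Arid5b*) that the name pattern caught although they are DNA-binding proteins and not remodeller subunits. In all, 18 members encode the ATPase itself.

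Total RNA was sequenced from 4 murine cell lines. Melan-a is a line of immortalized, nonmalignant melanocytes with an epithelial phenotype, and it was grown with 200 nM PMA, a phorbol ester. The lines 4C (pre-malignant, mesenchymal-like), 4C11− (non-metastatic melanoma, mesenchymal-like) and 4C11+ (metastatic melanoma, epithelial) were obtained from melan-a by repeated blockade of adhesion and were grown without PMA, so the medium and the line cannot be told apart in a comparison with melan-a. Melan-a had 2 libraries, numbered replicates 2 and 3, and each derived line had 3. The paper calls them triplicates of each line and does not say whether these were separate cultures. No stage is represented by more than 1 line. The values are log2 CPM (reads scaled to a common library total, on a log2 scale), on which a difference of 1 is a doubling.

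Remodellers hydrolyse ATP to move DNA over the histone octamer, and their families differ in what they do with the nucleosome. SWI/SNF (BAF and PBAF) opens regulatory DNA with either BRG1 (*Smarca4*) or BRM (*Smarca2*) as its motor, and in melanocytes BRG1 is known as a cofactor of MITF, the lineage transcription factor. ISWI spaces nucleosomes, and NuRD joins a CHD motor to histone deacetylases and is mostly known for repression. INO80, SRCAP and p400 are tied to the histone variant H2A.Z, which SRCAP and p400 place in nucleosomes. Genes of SWI/SNF subunits are frequently altered in human cancers, melanoma included.

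The spacing of the lowest values, read as that of single reads in unaltered CPM, gave 3.50 to 7.42 M reads per library. The highest value, 13.69, was the same in all 11 libraries, as a quantile normalization leaves it, so the values describe a gene's place within its library. A quantile step also alters the low values, so these depths are rough. The lowest value was −3.15 in melan-a replicate 2 and −2.58 in replicate 3. In unaltered CPM that would mean more reads in replicate 2, but the estimates were 3.50 and 5.82 M. All 8 melanocyte markers had a value, and their summed level was 10.87 and 13.14 log2 CPM in melan-a and 13.37 to 13.65 in 4C11+, but 1.85 to 2.90 in 4C and 1.64 to 3.53 in 4C11−, where *Sox10* did not exceed 0.48 in any library. Of the fibroblast markers 5 of 7 had a value, with summed levels of 10.98 and 11.99 in melan-a, from 11.77 to 11.90 in 4C, from 11.56 to 11.72 in 4C11− and from 10.94 to 11.18 in 4C11+. *Col1a1* among them was at 10.42 to 10.91 in 4C and 4C11− and at most 2.16 elsewhere, while *Vim* was lower in these lines (9.85 to 10.34) than in melan-a and 4C11+ (10.91 to 11.91). *Pdgfra* and *Pdgfrb* were at 6.38 and 6.90 in melan-a replicate 2 and at 3.91 and 0.89 in melan-a replicate 3. Keratinocyte markers (0 of 4) had no value, and of the immune markers 2 of 4 had one, with *Cd68* at 6.35 in melan-a replicate 2, 2.67 in melan-a replicate 3 and at most 2.91 elsewhere. *Mitf*, *Sox10*, *Tyrp1*, *Dct* and *Mlana* were higher in every library of melan-a and 4C11+ than in any of 4C or 4C11−. In melan-a, *Tyr* was at −0.25 and 1.29 and *Pmel* at 2.41 and 2.95, beside 8.39 to 8.70 and 11.72 to 12.20 in 4C11+. *Pmel* in 4C11− replicate 1 (2.54) lay between the melan-a libraries. *Kit* was higher in melan-a (6.92 and 6.18) than in 4C11+ (2.17 to 4.22). Every contrast between mesenchymal-like and epithelial lines below is therefore also a contrast between lines low and high in summed melanocyte markers. The part of this in the members' differences was not tested.

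Replicate 1 of 4C11− stood apart from its line in a way that bears on these genes. Across the 10344 genes used for the trend, its value against the mean of the 11 libraries rose by 0.95 on the log2 scale for each 10 percentage points of transcript GC content (r = 0.58 across genes, which are not independent replicates). Among the 54 members, with transcript GC contents of 37.7% to 60.5%, its deviation from the 4C11− mean correlated with GC content at r = 0.82, while replicates 2 and 3 gave −0.58 and −0.79 as the counterpart of the same mean. The AT-rich members were low in it. *Smarca5*, the ISWI motor, was at 4.98 log2 CPM in replicate 1 and at 8.07 and 8.47 in replicates 2 and 3, and *Atrx*, a remodeller of repeats and telomeres, was at 5.26 against 8.19 and 9.15. *Smarce1*, equally AT-rich at 39.1% GC, did not share the dip (7.37 against 7.48 and 7.28). Counts are therefore given also without this library, and after a GC correction within each library that was chosen after seeing the data.

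**Figure D1:**
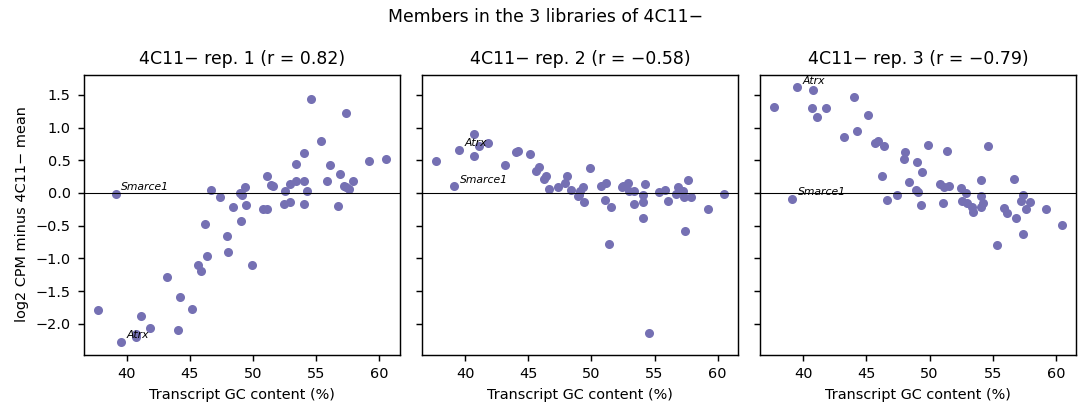
Deviation of each of the 54 members from the mean of 4C11− (vertical axis, log2 CPM) against the GC content of its transcript in percent (horizontal axis), with 1 panel for each library of 4C11−. The members fall along a rising line in replicate 1 (r = 0.82) and a falling one in replicates 2 and 3 (r = −0.58 and −0.79), and *Smarce1* lies off the line in replicate 1.

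Compared per kilobase of transcript, *Chd4*, the main NuRD motor, was the most abundant member, and its level per kilobase was 6.88 in 4C11− and 7.01 in 4C11+ on the log2 scale. Among the lowest was *Chd5*, a NuRD motor best known from neurons, at −1.35 and −2.28 in the same lines, and *Arid3b* (−1.92) and *Srcap* (−1.52) were lower still in 4C11−. In read number it lay between 5 reads in 4C11+ replicates 1 and 2 and 39 reads in 4C11− replicate 1. No member was at or under 3 reads in all libraries of a line. The members with the narrowest range over the 11 libraries, picked here after seeing the values, were *Arid1b* (6.35 to 7.09 log2 CPM), *Mta2* (7.36 to 8.10), *Ruvbl1* (6.41 to 7.17) and *Chd4* (9.46 to 10.25). The median range of a member was 1.89, and the widest belonged to *Chd7* (6.64), *Arid3b* (5.13), *Hells* (4.50) and *Arid4a* (4.24).

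**Figure D2:**
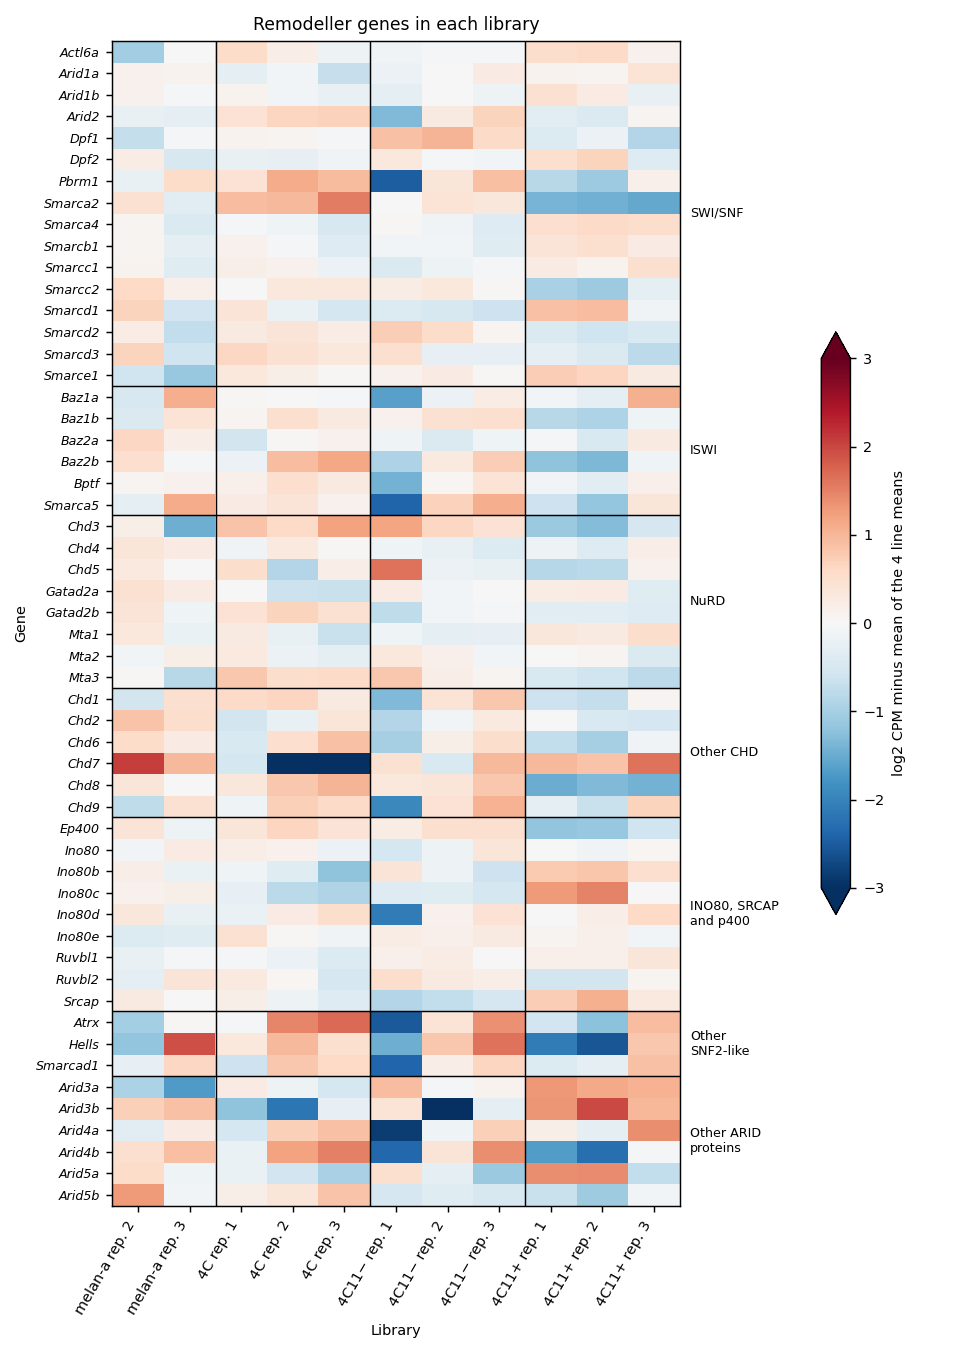
Level of all 54 members (rows, grouped by complex) in the 11 libraries (columns), as log2 CPM minus the mean of the 4 line means, red above and blue below. *Smarca2*, *Chd8* and *Ep400* are blue in all 3 libraries of 4C11+, *Chd7* is at the blue end of the scale in 4C replicates 2 and 3, and the column of 4C11− replicate 1 is blue at AT-rich members such as *Smarca5*, *Atrx* and *Smarcad1*.

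The lines were compared with limma over all 14272 genes, and a member was called at an adjusted p under 0.05 (Benjamini-Hochberg). The 6 comparisons share libraries, so their counts are not independent of each other. In 4C against melan-a, 4 members were higher (7.41% of 54, beside 7.64% of all genes) and 1 was lower (1.85%, beside 7.55%). In 4C11− against 4C, 0 members passed in either direction, beside 1.26% of all genes higher and 0.406% lower, although 5 members had an unadjusted p under 0.05. In 4C11+ against 4C11−, 5 were higher (9.26%, beside 15.6%) and 9 lower (16.7%, beside 15.4%). In 4C11+ against melan-a, 2 were higher (3.70%, beside 8.39%) and 4 lower (7.41%, beside 7.52%).

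The remaining comparisons join lines. With 4C and 4C11− set against melan-a and 4C11+, 8 members were higher in the mesenchymal-like lines (14.8%, beside 14.3% of all genes) and 4 were lower (7.41%, beside 15.3%). With 4C11+ set against the mean of the other lines, 7 were higher (13.0%, beside 18.3%) and 9 lower (16.7%, beside 15.8%). The shares of members were thus near or under those of all genes, and 34 of the 54 were called in none of the 6 comparisons. The median log2 difference of the members lay between −0.15 and 0.05 in every comparison, beside −0.09 to 0.12 for all genes. Single libraries moved these medians. From 4C11− to 4C11+ the median was −0.17 without 4C11− replicate 1 and 0.25 without 4C11− replicate 3, and without 4C11+ replicate 3 it was −0.29 both against melan-a and against the others. The 20 members with a call are described below by complex.

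**Figure D3:**
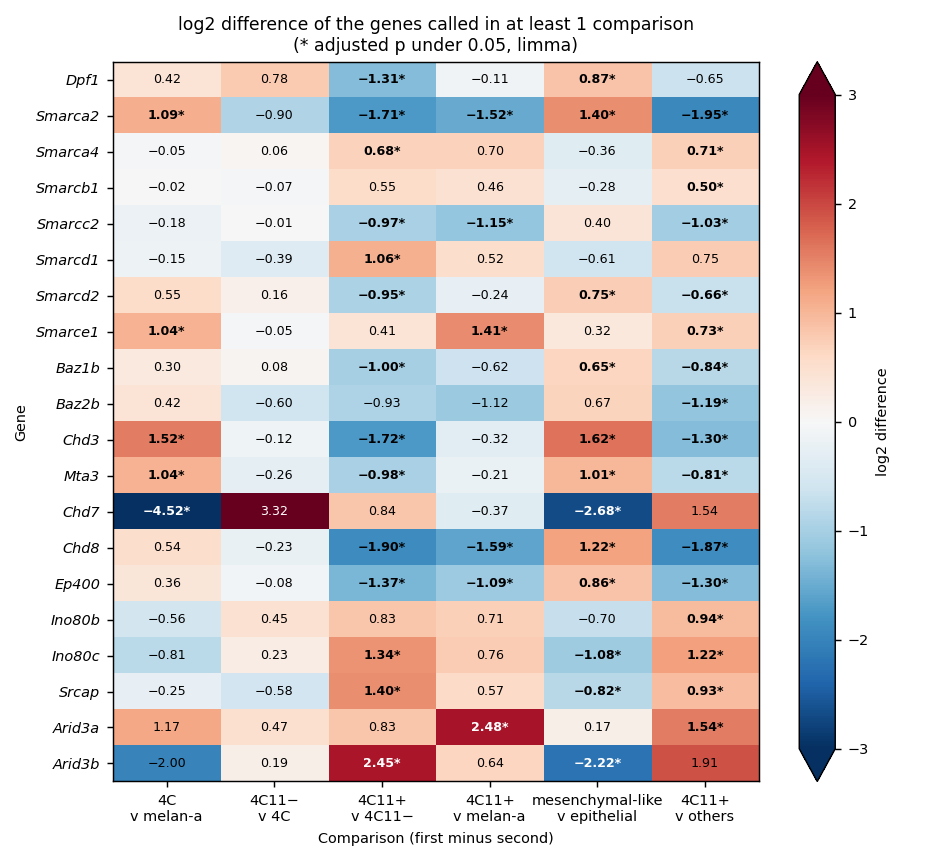
The 20 members called in at least 1 comparison (rows) with their log2 difference in each of the 6 comparisons (columns), written in each cell and coloured red where the first side is higher, with an asterisk where the adjusted p is under 0.05. *Smarca2* carries an asterisk in 5 of 6 columns, and the column of 4C11− against 4C carries none.

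The counts depended on single libraries, and the share of all genes called moved with them. Leaving out a library of a line outside a comparison changes only the shared estimate of the spread, not the difference. Without 4C11− replicate 1, 6 members were called higher and 1 lower in 4C against melan-a (beside 18.7% of all genes called in either direction), and 0 and 0 for the step from 4C to 4C11− (1.32%). There were 6 and 14 for the step from 4C11− to 4C11+ (32.7%), 3 and 6 in 4C11+ against melan-a (20.1%), 13 and 5 in the mesenchymal-like lines (34.0%), and 8 and 16 in 4C11+ against the others (40.1%). With the GC correction they were 4 and 1, 0 and 0, 7 and 9, 2 and 5, 9 and 5, and 7 and 14 in the same order, beside 18.9%, 2.87%, 36.6%, 21.3%, 34.3% and 39.9% of all genes. Replicates 1 and 2 of 4C11+ were the closest libraries of any line (r = 0.981 across genes), and they still differed by more than sampling noise. Without either of them the 16 calls in 4C11+ against the others became 6, and the 14 in 4C11+ against 4C11− became 7 without replicate 1 and 6 without replicate 2. Leaving out 4C11− replicate 2 left 8 of those 14. These reductions took the share of all genes called to between 20.9% and 23.1%. In 4C against melan-a, 2 of the 5 calls were kept without 4C replicate 2 or without 4C replicate 3, 1 was kept and 1 other member gained without melan-a replicate 3, and 3 were kept without 4C11− replicate 2 or without 4C11+ replicate 1. The 2 melan-a libraries correlated at r = 0.907 across genes, under every pair within 4C or 4C11+ and beside 0.888 to 0.971 within 4C11−. Their members' deviations correlated with GC content at 0.55 in replicate 2 and −0.55 in replicate 3, which limits every comparison with melan-a.

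The motors of SWI/SNF differed between the lines. *Smarca2* (ENSMUSG00000024921, chromosome 19, 26605050 to 26778322, plus strand, GRCm38) encodes BRM, and *Smarca4* (ENSMUSG00000032187, chromosome 9, 21616169 to 21704230, plus strand) encodes BRG1, and a SWI/SNF complex holds either of these motors but not both. The DNA just before the 2 genes is shown because these alternative motors moved in opposite directions in 4C11+. Each stretch holds 140 bases of the plus strand directly before the gene model, taken from the RefSeq promoter table on GRCm38.p6, and capitals mark CG dinucleotides.
Smarca2, chr19:26604910-26605049: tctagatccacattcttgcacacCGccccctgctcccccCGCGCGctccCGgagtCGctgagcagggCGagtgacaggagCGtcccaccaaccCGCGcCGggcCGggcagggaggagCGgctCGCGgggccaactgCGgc
Smarca4, chr9:21616029-21616168: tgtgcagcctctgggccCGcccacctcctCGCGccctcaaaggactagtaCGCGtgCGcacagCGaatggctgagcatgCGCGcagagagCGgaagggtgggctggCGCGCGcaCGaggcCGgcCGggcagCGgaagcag
Both are dense in CG, with 16 such dinucleotides for *Smarca2* and 17 for *Smarca4* in the 140 bases. Of the 54 members, 42 had an entry in that table, and the median number of CG in the 250 bases before the start was 20 for them and 6 over all 32851 entries. The E-box letters that MITF is known to bind were also searched in these 250 bases. CACGTG, which reads alike on both strands, was present in 3 of the 42 (7.14%, beside 6.02% of all entries). CATGTG, searched as itself and as CACATG, was present in 1 (2.38%, beside 12.3%), and neither motif lay before *Smarca2* or *Smarca4*.

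*Smarca2* was at 6.04 and 5.25 log2 CPM in melan-a, at 6.51, 6.57 and 7.13 in 4C, at 5.59, 5.99 and 5.93 in 4C11−, and at 4.19, 4.15 and 4.04 in 4C11+. The 3 libraries of 4C11+ were below all others, and 4C was above all others. It was 3.85-fold lower in 4C11+ than in the other lines averaged (log2 difference −1.95 ± 0.22 SE, limma adjusted p = 5.84e-05) and 3.27-fold lower than in 4C11− (−1.71 ± 0.27, adjusted p = 0.000567), and both calls held in all 11 fits that left out 1 library. It was 2.86-fold lower than in melan-a (−1.52 ± 0.30, adjusted p = 0.00644), a call that was lost without melan-a replicate 2 (−1.12, adjusted p = 0.0673). Its rise from melan-a to 4C, 2.13-fold (1.09 ± 0.30, adjusted p = 0.03), was lost without melan-a replicate 3, 4C replicate 2 or 4C replicate 3 (adjusted p = 0.0618 to 0.205).

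*Smarca4* was at 8.61 and 8.09 log2 CPM in melan-a, at 8.47, 8.39 and 8.05 in 4C, at 8.55, 8.41 and 8.14 in 4C11−, and at 9.02, 9.08 and 9.04 in 4C11+. The 4C11+ libraries were above all others and the remaining lines overlapped. It was 1.63-fold higher in 4C11+ than in the other lines averaged (0.71 ± 0.17, limma adjusted p = 0.00755, held in all 11 fits) and 1.60-fold higher than in 4C11− (0.68 ± 0.20, adjusted p = 0.0247). The latter call was lost without 4C11− replicate 2 or 3 or without any replicate of 4C11+ (adjusted p = 0.0513 to 0.0831). Against melan-a the difference of 0.70 ± 0.23 had an adjusted p of 0.0595, and 0.0237 with the GC correction.

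Set against each other within a library and per kilobase, the *Smarca4* level exceeded that of *Smarca2* by a log2 difference of 2.60 ± 0.19 in melan-a (SD, n = 2). The other lines had n = 3 each, and their differences were 1.46 ± 0.57 for 4C, 2.42 ± 0.39 for 4C11− and 4.81 ± 0.08 for 4C11+. In linear terms the ratio was 6.06, 2.75, 5.35 and 28.1. The 4C11+ libraries lay between 4.73 and 4.89, above the highest of the others at 2.85. These ratios are a description and were not tested. They use the longest transcript of each gene, 5921 bases for *Smarca2* and 6376 for *Smarca4*, beside 14269 and 6475 exonic bases in all. Their size depends on that choice, while the change between lines does not.

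**Figure D4:**
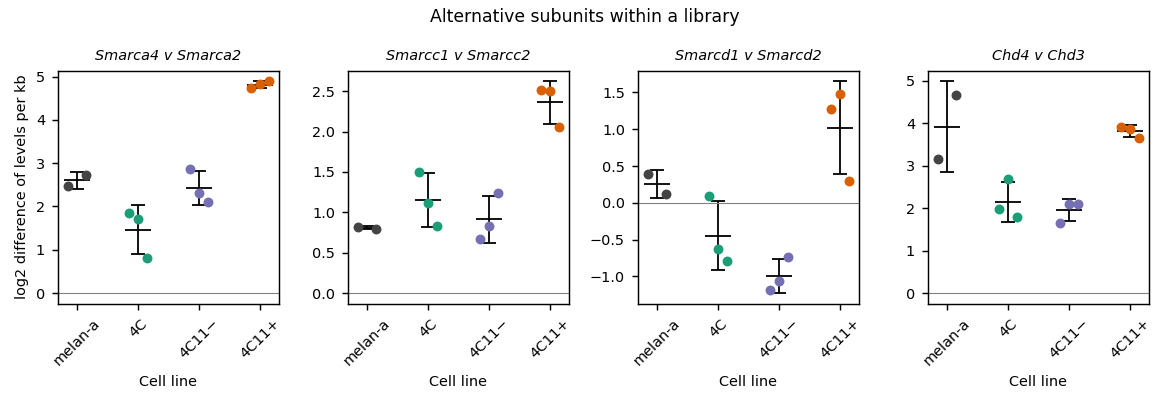
Log2 difference between the levels per kilobase of alternative subunits in each library (points), with the mean and SD of each line (black), for *Smarca4* and *Smarca2*, *Smarcc1* and *Smarcc2*, *Smarcd1* and *Smarcd2*, and *Chd4* and *Chd3*; the horizontal line marks equal levels. In the first panel the 4C11+ libraries lie at 4.73 to 4.89, and no other library exceeds 2.85.

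Of the core subunits of SWI/SNF that exist as alternatives, *Smarcc2* and, less firmly, *Smarcd1* and *Smarcd2* also differed in 4C11+. *Smarcc2* (BAF170, a scaffold subunit) was at 5.18, 5.07 and 5.89 log2 CPM in 4C11+, and between 6.13 and 6.75 in the other 8 libraries. It was 2.05-fold lower in 4C11+ than in the others (−1.03 ± 0.21, limma adjusted p = 0.00331, held in all 11 fits), and the calls against 4C11− (−0.97 ± 0.26, adjusted p = 0.014) and melan-a (−1.15 ± 0.29, adjusted p = 0.0199) were lost without 4C11+ replicate 1 or 2, and also without 4C11− replicate 2 and melan-a replicate 2 respectively (adjusted p = 0.0569 to 0.145). Its partner *Smarcc1* (BAF155) was called in no comparison. Per kilobase, *Smarcc1* exceeded *Smarcc2* 5.14-fold in 4C11+ and 1.75-fold to 2.22-fold in the other lines.

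Of the BAF60 subunits, which link the complex to transcription factors, *Smarcd1* was 2.09-fold higher (1.06 ± 0.37, limma adjusted p = 0.0482) and *Smarcd2* 1.93-fold lower (−0.95 ± 0.27, adjusted p = 0.0187) in 4C11+ than in 4C11−. Both calls were weak. That of *Smarcd1* held in 4 of 11 fits and was lost without 4C replicates 2 or 3, any replicate of 4C11−, or 4C11+ replicates 1 or 2 (adjusted p = 0.0528 to 0.169). That of *Smarcd2* held in 8, being lost without 4C11− replicate 2 or 4C11+ replicates 1 or 2 (adjusted p = 0.0522 to 0.0697). *Smarcd2* was also higher in the mesenchymal-like lines (0.75 ± 0.20, adjusted p = 0.0147), except without melan-a replicate 3 (0.51, adjusted p = 0.0638). Its lower level in 4C11+ than in the others (−0.66 ± 0.22, adjusted p = 0.0386) held in 3 of 11 fits only, being kept without melan-a replicate 3 and 4C11− replicates 1 and 3 (adjusted p = 0.0506 to 0.149 in the other 8).

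*Smarce1* (BAF57, an HMG-box subunit) was at 6.65 and 6.11 log2 CPM in melan-a, from 7.29 to 7.56 in 4C, from 7.28 to 7.48 in 4C11− and from 7.50 to 7.97 in 4C11+. Every library of the derived lines was above both of melan-a. It was 2.06-fold higher in 4C than in melan-a (1.04 ± 0.24, limma adjusted p = 0.0107) and 2.65-fold higher in 4C11+ than in melan-a (1.41 ± 0.24, adjusted p = 0.00241). After the GC correction the differences were 0.91 and 1.53 with adjusted p of 0.275 and 0.058, and the first call was also lost without melan-a replicate 3 (0.77, adjusted p = 0.0837). The correction widened the spread between replicates of *Smarce1*, which had not shared the dip in 4C11− replicate 1. Its corrected values were 8.72, 7.38 and 6.77 in 4C11− and 6.91 and 5.65 in melan-a. Against the other lines together, 4C11+ was 0.73 ± 0.18 higher (adjusted p = 0.00794), which was lost with the GC correction (0.78, adjusted p = 0.134) and without 4C11+ replicates 1 or 2 (adjusted p = 0.0517 to 0.0634).

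*Dpf1* (BAF45B, a PHD-finger subunit known from neuronal BAF) was low everywhere, at 3.88 to 4.33 log2 CPM in 4C11− and from 2.42 to 3.13 in 4C11+, without overlap. It fell 2.48-fold from 4C11− to 4C11+ (−1.31 ± 0.32, limma adjusted p = 0.00855, held in all 11 fits). It was higher in the mesenchymal-like lines (0.87 ± 0.24, adjusted p = 0.0166), a call lost without melan-a replicate 2 (0.69, adjusted p = 0.0621). The sides overlapped, since 4C, at 3.25 to 3.41, reached under melan-a replicate 3 (3.27, with replicate 2 at 2.58). Between 4C and melan-a the difference was 0.42 without a call (adjusted p = 0.505). *Smarcb1* (SNF5, a core subunit) was 0.50 ± 0.18 higher in 4C11+ than in the others (adjusted p = 0.0482), a call kept in 3 of 11 fits, those without melan-a replicate 2, 4C replicate 1 or 4C11− replicate 1, and lost in the other 8 (adjusted p = 0.0639 to 0.189) and with the GC correction (0.41, adjusted p = 0.05). The other SWI/SNF members, *Actl6a*, *Arid1a*, *Arid1b*, *Arid2*, *Dpf2*, *Pbrm1*, *Smarcc1* and *Smarcd3*, were called in none of the 6 comparisons. Without 4C11− replicate 1, *Arid2* (0.77, limma adjusted p = 0.00315) and *Pbrm1* (0.94, adjusted p = 0.0209) were called higher in the mesenchymal-like lines. Both were then also called lower in 4C11+ than in the others (−0.50 and −1.13, adjusted p = 0.0341 and 0.0108). Neither was called with the GC correction. For *Smarcd3*, 48.2% of the exonic bases are shared with genes on the opposite strand. The library kit was stranded, but the paper does not say whether reads were counted by strand.

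**Figure D5:**
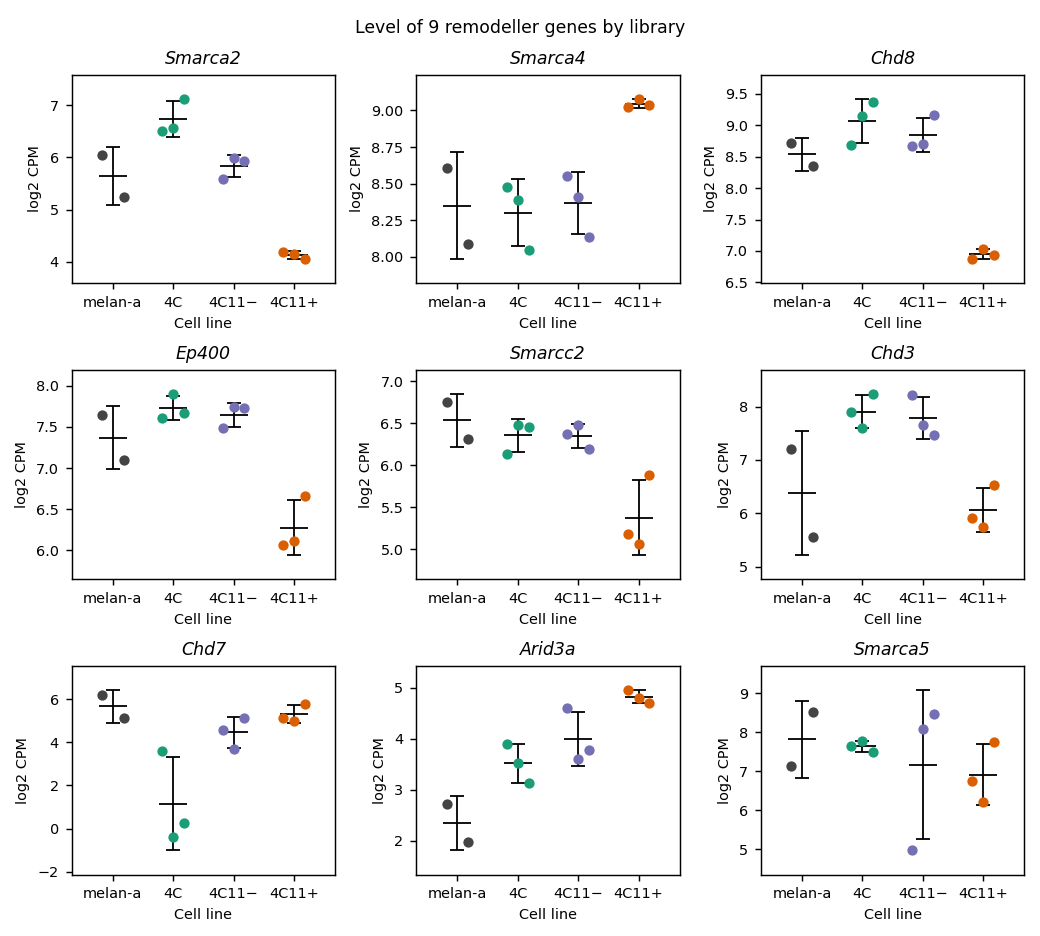
Level in log2 CPM (vertical axis, not starting at 0 and different in each panel) of 9 members in the libraries of the 4 lines (points), with the mean and SD of each line in black. *Smarca2*, *Chd8*, *Ep400* and *Smarcc2* are lowest in the 3 libraries of 4C11+, *Smarca4* is highest there, and *Chd7* is lowest in 4C, where its libraries are far apart.

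Among members called lower in 4C11+ than in the others, *Smarca2* differed most and *Chd8* came next, which encodes a CHD motor known to bind β-catenin and active promoters. *Chd8* (ENSMUSG00000053754, chromosome 14, 52198151 to 52257780, minus strand) was at 8.72 and 8.35 log2 CPM in melan-a, 8.69, 9.16 and 9.38 in 4C, 8.67, 8.71 and 9.16 in 4C11−, and 6.87, 7.04 and 6.93 in 4C11+. All 3 libraries of 4C11+ were more than 1 log2 unit under every other library. It was 3.66-fold lower in 4C11+ than in the others (−1.87 ± 0.19, limma adjusted p = 1.96e-05), 3.73-fold lower than in 4C11− (−1.90 ± 0.22, adjusted p = 6.85e-05) and 3.01-fold lower than in melan-a (−1.59 ± 0.25, adjusted p = 0.00166). All of these calls held in the 11 fits without 1 library and with the GC correction. Its higher level in the mesenchymal-like lines (1.22 ± 0.17, adjusted p = 0.000185) comes with overlap between the sides, since melan-a lay close to 4C and 4C11−.

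*Chd7*, a motor required in neural crest development, was called lower in 4C. It was at 6.22 and 5.12 log2 CPM in melan-a (230 and 231 reads), at 3.62, −0.42 and 0.24 in 4C (85, 6 and 7 reads), at 4.59, 3.69 and 5.11 in 4C11− and at 5.13, 5.00 and 5.78 in 4C11+. The libraries of 4C were below all others, and replicate 1 of 4C stood far above replicates 2 and 3. It was 23.0-fold lower in 4C than in melan-a (−4.52 ± 0.94, limma adjusted p = 0.00671), a call lost without melan-a replicate 2 (−3.97, adjusted p = 0.0561). The size moved with single 4C libraries, to −5.76 (54.1-fold) without 4C replicate 1 and to −3.74 (13.3-fold) without 4C replicate 2. In the mesenchymal-like lines it was 6.41-fold lower (−2.68 ± 0.63, adjusted p = 0.00733, held in all 11 fits, and −3.30 without 4C replicate 1), a mean of unlike lines, as 4C11− reached 5.11. From 4C to 4C11− the difference was 3.32 ± 0.84 without a call (adjusted p = 0.0805), and without 4C replicate 1 it was 4.55 (adjusted p = 0.00171), the 1 member called in that comparison under any alternative. Replicate 1 of 4C also differed from the other 4C libraries in *Cdh5*, an endothelial cadherin, at 4.01 log2 CPM against −0.70 and 0.44. *Cdh5* was at 6.54 to 7.43 in 4C11− and had 0 reads in every library of 4C11+. The paper lists it as a hub gene of a co-expression module in these lines. Of the endothelial markers 1 of 3 had a value, and its part in the *Chd7* values was not tested.

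The other CHD motors outside NuRD, *Chd1*, *Chd2*, *Chd6* and *Chd9*, were called in no comparison. *Chd2* was at 7.0 and 6.67 log2 CPM in melan-a and at 5.65 to 6.13 in 4C11+, a difference of −1.01 ± 0.37 (limma adjusted p = 0.0897), and 18.4% of its exonic bases are shared with another gene on the same strand. Without 4C11− replicate 1, *Chd1* was called lower in 4C11+ than in 4C11− (−1.04, adjusted p = 0.035) and *Chd2* lower in 4C11+ than in melan-a (−1.01, adjusted p = 0.0352), and neither was called with the GC correction (adjusted p = 0.18 and 0.0667). Leaving out the same library, *Chd6* was called lower in 4C11+ than in the others (−0.97, limma adjusted p = 0.021).

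In NuRD, which couples nucleosome remodelling to histone deacetylation, the motor *Chd3* and the adaptor *Mta3* were higher in the mesenchymal-like lines. *Chd3* was at 7.21 and 5.56 log2 CPM in melan-a, 7.89, 7.60 and 8.23 in 4C, 8.22, 7.66 and 7.47 in 4C11−, and 5.91, 5.74 and 6.53 in 4C11+. All mesenchymal-like libraries were above all epithelial ones, and melan-a replicates differed from each other by more than 1 log2 unit. It was 3.08-fold higher in the mesenchymal-like lines (1.62 ± 0.29, limma adjusted p = 0.00136) and fell 3.30-fold from 4C11− to 4C11+ (−1.72 ± 0.39, adjusted p = 0.00607), calls that held in all 11 fits. The call against melan-a in 4C (1.52 ± 0.44, adjusted p = 0.0362) was 2.35 without melan-a replicate 2 and was lost without melan-a replicate 3 (0.70, adjusted p = 0.29), any replicate of 4C, 4C11− replicate 2 or 4C11+ replicate 1 (from adjusted p = 0.054). Against the other lines together, 4C11+ was lower (−1.30 ± 0.33, adjusted p = 0.00977), except without 4C11+ replicates 1 or 2 (adjusted p = 0.0528 and 0.0629).

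*Mta3*, whose protein is known as a repressor of *Snai1* in breast epithelium, was at 6.01 and 5.14 log2 CPM in melan-a, from 6.51 to 6.78 in 4C, from 6.06 to 6.79 in 4C11− and from 5.20 to 5.52 in 4C11+. All mesenchymal-like libraries were above all epithelial ones. It was 2.01-fold higher in the mesenchymal-like lines (1.01 ± 0.21, limma adjusted p = 0.00328, held in all 11 fits). The single steps were less firm, at 1.04 ± 0.31 for 4C against melan-a (adjusted p = 0.0435, held in 3 of 11 fits, those without melan-a replicate 2 and 4C11− replicates 1 and 3, and at 0.60 with adjusted p = 0.285 without melan-a replicate 3) and −0.98 ± 0.28 for 4C11+ against 4C11− (adjusted p = 0.0194, lost without 4C11− replicate 1 or 4C11+ replicates 2 or 3, adjusted p = 0.0522 to 0.0578). Against the others together, 4C11+ was lower (−0.81 ± 0.23, adjusted p = 0.0185), which was lost without any replicate of 4C11+ (adjusted p = 0.0504 to 0.0693).

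The remaining NuRD members, *Chd4*, *Chd5*, *Mta1*, *Mta2*, *Gatad2a* and *Gatad2b*, were not called. *Gatad2b* was called lower in 4C11+ than in the others without 4C11− replicate 1 (limma adjusted p = 0.0276) and with the GC correction (adjusted p = 0.0449), at −0.53 in both. *Chd4* differed by −0.19 ± 0.15 between mesenchymal-like and epithelial lines (limma adjusted p = 0.387). Per kilobase it exceeded *Chd3* by a ratio of 15.1 in melan-a and 14 in 4C11+, and of 4.44 in 4C and 3.88 in 4C11−, with overlap between melan-a (log2 3.16 and 4.67) and 4C11+ (3.66 to 3.92) and none between the epithelial and mesenchymal-like libraries (at most 2.68).

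Among the INO80, SRCAP and p400 members, *Ep400*, the p400 motor that places H2A.Z, fell in 4C11+. *Ep400* (ENSMUSG00000029505, chromosome 5, 110664373 to 110770717, minus strand) was at 7.64 and 7.10 log2 CPM in melan-a, 7.61, 7.90 and 7.67 in 4C, 7.48, 7.73 and 7.73 in 4C11−, and 6.06, 6.11 and 6.66 in 4C11+. The 4C11+ libraries were below all others. It was 2.47-fold lower in 4C11+ than in the others (−1.30 ± 0.19, limma adjusted p = 0.000322) and 2.58-fold lower than in 4C11− (−1.37 ± 0.23, adjusted p = 0.000849), and both calls held in all 11 fits. Against melan-a (−1.09 ± 0.26, adjusted p = 0.0149) the call was lost without melan-a replicate 2 or 4C11+ replicates 1 or 2 (adjusted p = 0.0629 to 0.127). It was also higher in the mesenchymal-like lines (0.86 ± 0.17, adjusted p = 0.0025), with overlap between the sides, since melan-a replicate 2 lay among 4C and 4C11−.

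The other motor of the rule that places H2A.Z, *Srcap*, moved the opposite way. It was at 3.33, 3.65 and 2.89 log2 CPM in 4C11+ and at 1.73, 1.87 and 2.09 in 4C11−, without overlap, a 2.63-fold rise (1.40 ± 0.34, limma adjusted p = 0.00855, held in all 11 fits). Its values are uncertain, because 61.7% of its exonic bases are shared with *Gm42715* on the same strand, and reads there could have been assigned to either gene or to none. Against the other lines it was higher in 4C11+ (0.93 ± 0.28, adjusted p = 0.0245), except without 4C11+ replicates 1 or 2 (adjusted p = 0.0993 and 0.146). Its lower level in the mesenchymal-like lines (−0.82 ± 0.25, adjusted p = 0.0287) was lost without melan-a replicate 2, 4C replicates 2 or 3, 4C11− replicate 2, or 4C11+ replicates 1 or 2 (adjusted p = 0.0619 to 0.0787).

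Of the INO80 subunits, *Ino80c* was at 6.04, 6.26 and 4.77 log2 CPM in 4C11+, at 4.91 and 4.96 in melan-a, and at 3.86 to 4.53 in 4C and 4C11−. It was 2.11-fold lower in the mesenchymal-like lines without overlap (−1.08 ± 0.27, limma adjusted p = 0.0114, held in all 11 fits). Within 4C11+, replicate 3 lay far below replicates 1 and 2. The rise in 4C11+ against 4C11− (1.34 ± 0.37, adjusted p = 0.0161) and against the others (1.22 ± 0.31, adjusted p = 0.00938) was lost without 4C11+ replicate 1 or 2 (adjusted p = 0.0675 to 0.0804), as was that of *Ino80b* against the others (0.94 ± 0.29, adjusted p = 0.0276, then 0.108 and 0.116). The motor *Ino80* itself differed by at most 0.16 in any comparison and was not called, nor were *Ino80d*, *Ino80e* and the AAA+ ATPases *Ruvbl1* and *Ruvbl2* that these complexes share.

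In ISWI, *Baz1b* (WSTF, a partner of the ISWI motor) was 1.99-fold lower in 4C11+ than in 4C11− (−1.0 ± 0.27, limma adjusted p = 0.0156) and 1.79-fold lower than in the others (−0.84 ± 0.23, adjusted p = 0.0135). Its libraries lay at 7.69, 7.59 and 8.38 log2 CPM in 4C11+ and at 8.63, 8.98 and 9.02 in 4C11−, but melan-a, at 8.09 and 8.91, overlapped with 4C11+. Both calls were lost without 4C11+ replicates 1 or 2, and the first also without 4C11− replicate 2 (adjusted p = 0.0564 to 0.0915). Its higher level in the mesenchymal-like lines (0.65 ± 0.20, adjusted p = 0.0317) was kept in 4 of 11 fits, those without melan-a replicate 3, 4C replicate 1, 4C11− replicate 1 or 4C11+ replicate 3 (adjusted p = 0.056 to 0.134 in the others). *Baz2b* was lower in 4C11+ than in the others (−1.19 ± 0.41, adjusted p = 0.0415), kept in 4 fits, those without melan-a replicate 3, 4C replicate 1, 4C11− replicate 1 or 4C11+ replicate 3 (adjusted p = 0.0563 to 0.189 in the others).

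*Smarca5*, the ISWI motor that was measured, was at 7.13 and 8.51 log2 CPM in melan-a, from 7.50 to 7.78 in 4C, 4.98, 8.07 and 8.47 in 4C11−, and 6.75, 6.23 and 7.75 in 4C11+. It was called in no comparison. Without 4C11− replicate 1 it was lower in 4C11+ than in 4C11− (−1.36, limma adjusted p = 0.0391) and than in the others (−1.0, adjusted p = 0.0384), while with the GC correction the values were −0.48 (adjusted p = 0.439) and −0.62 (adjusted p = 0.217). *Baz1a*, *Baz2a* and *Bptf* were not called.

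*Atrx*, *Hells* (LSH, a motor tied to maintenance of DNA methylation) and *Smarcad1* were not called either. Without 4C11− replicate 1, *Atrx* was called higher in the mesenchymal-like lines (1.36, limma adjusted p = 0.043). *Hells* was at 4.51 and 7.63 log2 CPM in melan-a, from 6.0 to 6.67 in 4C, 4.23, 6.51 and 7.34 in 4C11−, and 3.60, 3.13 and 6.49 in 4C11+, with replicate 3 of 4C11+ far above replicates 1 and 2. Its transcript, at 37.7% GC, is the most AT-rich of the members. Against the others, 4C11+ differed by −1.72 ± 0.84 (limma adjusted p = 0.137), and by −1.62 with the GC correction (adjusted p = 0.0392).

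Of the ARID-domain proteins outside SWI/SNF, *Arid3a* and *Arid3b* were called. *Arid3a*, a DNA-binding protein known from B cells, was at 2.72 and 1.96 log2 CPM in melan-a, from 3.13 to 3.90 in 4C, from 3.60 to 4.59 in 4C11− and from 4.70 to 4.96 in 4C11+. All 4C11+ libraries were above all others, and both of melan-a were below all others. It was 5.56-fold higher in 4C11+ than in melan-a (2.48 ± 0.39, limma adjusted p = 0.00175) and 2.90-fold higher than in the others (1.54 ± 0.29, adjusted p = 0.00203), and these calls held in all 11 fits and with the GC correction.

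*Arid3b* was near the bottom of the scale, at 3 to 15 reads in 4C and 4C11− and 22 to 35 in 4C11+. It was 5.46-fold higher in 4C11+ than in 4C11− (2.45 ± 0.82, limma adjusted p = 0.0417), a call lost without 4C replicate 1, 4C11− replicate 2 or any replicate of 4C11+ (adjusted p = 0.0555 to 0.137). The fold was 2.60 without 4C11− replicate 2, which held 3 reads (log2 1.38, adjusted p = 0.136) and 8.96 without 4C11− replicate 1 (3.16, adjusted p = 0.0126). *Arid3b* was also 4.67-fold lower in the mesenchymal-like lines (−2.22 ± 0.62, adjusted p = 0.0178), a call lost without melan-a replicate 3 (adjusted p = 0.0513). *Arid4a*, *Arid4b*, *Arid5a* and *Arid5b* were called in no comparison. Without 4C11− replicate 1, *Arid4b* (40.7% GC) was called lower in 4C11+ than in 4C11− (−2.21, limma adjusted p = 0.0235), melan-a (−2.02, adjusted p = 0.0493) and the others (−2.13, adjusted p = 0.00602). With the GC correction, *Arid4b* (−1.76, adjusted p = 0.0128) and *Arid5b* (−0.88, adjusted p = 0.0362) were called lower in 4C11+ than in the others.

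A list of subunits and partners that the symbol rule leaves out was read beside the members, and 61 of its 63 genes had a value. In 4C against melan-a 3 were higher (4.92%, beside 7.64% of all genes) and 8 lower (13.1%, beside 7.55%), and from 4C to 4C11− 1 and 1 (1.64% each, beside 1.26% and 0.406%). From 4C11− to 4C11+ 9 were higher (14.8%, beside 15.6%) and 14 lower (23.0%, beside 15.4%), and from melan-a to 4C11+ 1 (1.64%, beside 8.39%) and 6 (9.84%, beside 7.52%). In the mesenchymal-like lines 5 were higher (8.20%, beside 14.3%) and 13 lower (21.3%, beside 15.3%), and in 4C11+ against the others 10 (16.4%, beside 18.3%) and 11 (18.03%, beside 15.8%). *Bcl11a* and *Bcl11b*, zinc-finger proteins that can join SWI/SNF, were present in opposite lines. *Bcl11a* was at 1.87 and 3.99 log2 CPM in melan-a and at 1.32 to 1.33 in 4C11+, with 0 reads in every library of 4C and at most 1 read in 4C11−. *Bcl11b* was at 2.01 to 3.44 in 4C and 2.92 to 3.75 in 4C11−, with 0 reads in every library of melan-a and 4C11+. Against a floor of 3 reads in each library, *Bcl11a* was at least 18.3-fold lower in 4C than in melan-a (limma adjusted p = 0.000105) and at least 7.44-fold higher in 4C11+ than in 4C11− (adjusted p = 0.000531). *Bcl11b* was at least 9.07-fold higher in 4C than in melan-a (adjusted p = 2.68e-05) and at least 10.9-fold lower in 4C11+ than in 4C11− (adjusted p = 4.87e-06). These calls held in all 11 fits.

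*Cdca7* and *Cdca7l* encode related zinc-finger proteins, the first a known partner of HELLS. *Cdca7l* was at 5.13 and 6.58 log2 CPM in melan-a, from 3.60 to 3.93 in 4C, from 0.60 to 0.85 in 4C11− (8 to 13 reads) and 6.21 to 6.57 in 4C11+. It fell from melan-a to 4C (−2.06 ± 0.39, limma adjusted p = 0.00378) and again from 4C to 4C11− (−3.08 ± 0.35, adjusted p = 0.00088), and was 49.9-fold higher in 4C11+ than in 4C11− (5.64 ± 0.35, adjusted p = 4.19e-07), calls held in all 11 fits. *Cdca7* went the other way, falling 3.88-fold from 4C11− to 4C11+ (−1.96 ± 0.42, adjusted p = 0.00413).

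Other partners among the 5 largest called differences of a comparison were NuRD, SWI/SNF, p400 and repair proteins. *Rbbp7*, a histone chaperone of NuRD, was 2.72-fold higher in the mesenchymal-like lines (1.44 ± 0.13, limma adjusted p = 5.52e-06), at 9.22 to 9.73 log2 CPM there and 7.72 to 8.33 in melan-a and 4C11+. In 4C11+ against melan-a, *Mbd3* (the NuRD core) rose by 1.47 ± 0.30 (adjusted p = 0.00724) and the deacetylase *Hdac1* fell by 1.14 on the log2 scale (adjusted p = 0.00707), and both were lost without melan-a replicate 2 (adjusted p = 0.0575 and 0.0605). The bromodomain genes *Brd8* of p400 (−1.72 ± 0.27, adjusted p = 0.00174) and *Brd7* of PBAF (−1.25 ± 0.22, adjusted p = 0.00332) were lower in the same comparison. *Rad54l*, a motor of homologous recombination, fell 3.85-fold from 4C11− to 4C11+ (−1.94 ± 0.46, adjusted p = 0.0078), and *Ss18* of SWI/SNF 2.11-fold from melan-a to 4C (−1.08 ± 0.21, adjusted p = 0.00404), calls held in all 11 fits. Against melan-a, *Rad54l* was lower in 4C11+ (−1.86 ± 0.52, adjusted p = 0.0311), a call lost without melan-a replicate 3 or 4C11+ replicates 1 or 2 (adjusted p up to 0.171). *Rbbp4*, another histone chaperone of NuRD, rose by 0.90 ± 0.19 from 4C to 4C11− (adjusted p = 0.0355), kept in 3 of 11 fits, those without melan-a replicate 2 or 3 or 4C replicate 1 (adjusted p up to 0.155 in the others).

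Proliferation genes were read beside the members, since several remodellers act at replication. Of 13, in 4C against melan-a 1 was called higher (7.69%, beside 7.64% of all genes), in 4C11+ against melan-a 2 (15.4%, beside 8.39%), in the mesenchymal-like lines 2 (15.4%, beside 14.3%), and none in the other 3 comparisons (13 genes tested, with 2, 1 and 1 at an unadjusted p under 0.05 in 4C11− against 4C, 4C11+ against 4C11− and 4C11+ against the others). The summed level of the 13 differed between replicates, at 11.06 and 12.30 log2 CPM in melan-a and 12.14 to 12.77 in 4C. In 4C11− it was 11.92, 12.55 and 12.80, and in 4C11+ 11.74, 11.68 and 12.20. The genes called were *Mcm6* in 3 comparisons, *Mcm3* in 4C11+ against melan-a and *Top2a* in the mesenchymal-like lines. Their part in the members' differences was not tested. In bulk RNA, fewer cells of a kind and less RNA per cell cannot be told apart.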

How the data were processed

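The authors deposited log2 CPM values, 1 file per library. They aligned reads with STAR to GRCm38 (Ensembl 90 annotation), counted them per gene with Rsubread, filtered out genes under 1 CPM unless 4 libraries reached it, and applied voom of limma. A quantile step is not named but is seen in the values, which were used as they are. The members, complexes and companion genes were chosen with earlier results of these data known. Lines were compared with limma 3.58.1 (R 4.3.3) over all 11 libraries, with 1 mean per line, a trend of variance on mean, and Benjamini-Hochberg adjustment over 14272 genes. The fit was tested on simulated data. Reads were traced from the order of distinct low values, with a floor of 3 reads. Levels per kilobase, GC content and exon overlap used GENCODE M21 (GRCm38), the first and second with the longest transcript of each gene. In each comparison the text names up to 10 called members per direction, all ATPases and up to 5 called companions. Replicates are of 1 line per stage, so p-values measure the spread between replicates of a line. The alternatives changed the normalization, offset, filter, variance trend, block and libraries used.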

Additional observations from a re-analysis of the deposited data

How the results depend on the processing

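A further quantile normalization, a common median, an offset of 1 CPM, a filter at a mean log2 value of 1, and the GC correction (added after seeing the data) left the total number of called members in each comparison within 1.5 times that of the report, although the GC correction raised the members called lower in 4C11+ against the others from 9 to 14. The quantile and median settings could change little, since library medians already spanned only 0.0106 and the highest value was shared. Their agreement is therefore no check of the normalization. Without the mean-variance trend 3 members in place of 5 were called in 4C against melan-a, and with only the libraries of the lines compared 1. Over the fits without 1 library, the number called ranged from 2 to 7 in 4C against melan-a, 0 to 1 in 4C11− against 4C, 6 to 20 in 4C11+ against 4C11−, 4 to 9 in 4C11+ against melan-a, 10 to 18 in the mesenchymal-like lines and 6 to 24 in 4C11+ against the others. The differences of called members kept their sign under every alternative run, with 894 values on the same side of the threshold and 138 no longer past it. Of these losses 111 came from leaving out 1 library, 9 from fits without the trend, 7 with only the lines compared, 4 with the GC correction, 4 with the GC correction and the block, 2 with the block and 1 with the filter, and the cause was not tested.

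Replicate numbers are shared between lines. Deviations from the line means correlated at a median r of 0.20 (−0.32 to 0.49) in 15 same-numbered pairs and −0.15 (−0.50 to 0.48) in 30 others, with r over 0.1 in 9 and 11 of them, and 4 of 11 libraries correlated best with their own number. Since not every same-numbered pair was over 0.1, the libraries were not treated as paired. With the replicate block 5, 0, 17, 6, 17 and 19 members were called in the order of the comparisons above, and with the block and the GC correction 7, 0, 20, 8, 16 and 21. The block ended the calls of *Chd3* (1.48, adjusted p = 0.0659) and *Mta3* (0.91, adjusted p = 0.0502) in 4C against melan-a. Depth limits *Arid3b*, *Chd5* and *Chd7* in 4C, which rest on few reads.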
